A study of Homo sapiens with 6 samples.

Results

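The ERV1 loci described here are the fragments of gammaretrovirus-like endogenous retroviruses that remain in the ERV1 family once the subfamilies whose names start with MER, LTR7, HERVH, LTR12, HERV9, LTR10 or HERVIP10 are set aside. They were chosen by the family and subfamily names of the repeat annotation, among repeat loci with a row in at least 1 of 6 tables. Beyond such a row no measured value entered the rule, which was set with earlier results of these data known. They comprised 7851 of the 728165 repeat loci with a row. The libraries were made from polyadenylated RNA of SW480, an established human colon adenocarcinoma line. Cells had been transduced with a lentiviral vector and selected with antibiotic, and carried either pLENTI CMV Clover, a fluorescent protein used as control (3 libraries), or pLENTI CMV Z18trunc, a truncated form of the nuclear RNA surveillance factor ZC3H18 (3 libraries). The study's methods describe 3 separately made lines per group, so p-values measure the spread between such lines, and the viral CMV promoter drives the introduced gene. The comparison asks whether RNA of these loci accumulates when the truncated protein is present.

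An endogenous retrovirus inserts as a provirus, in which an internal part with the viral genes lies between 2 long terminal repeats (LTRs). The LTRs carry the promoter and the polyadenylation signal, and most copies in the human genome are solitary LTRs left after recombination between both ends. An LTR inside or next to a gene can therefore serve as a start or as an end of a cellular transcript. ZC3H18 links the cap-binding complex on nascent RNA to the NEXT and PAXT complexes, which hand polyadenylated and other nuclear transcripts to the RNA exosome. DNA methylation, TRIM28 with SETDB1 and the HUSH complex silence many endogenous retroviruses at the level of transcription.

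Of the 7851 loci, 3805 had a row on their own strand, the strand on which the element would be transcribed from its own promoter, and 4046 had rows only on the opposite strand. The own-strand loci belonged to 142 subfamilies. They comprised 2833 LTRs and 972 internal parts. By the spans of the deposited gene tables, 2142 of the loci lay outside genes, 1208 in a gene on the same strand and 455 in a gene on the other strand only. Most were barely covered: 2967 (78.0%) had at most 6 counts summed over the 6 libraries. Between 1341 and 1698 loci had an own-strand row in a given library. The 245 loci with at least 30 counts (6.44%) held 79.3% of the counts, and only these were tested one by one. Abundance was given as CPM, the authors' estimated fragment count per 1000000 aligned fragments. Loci were ranked and compared by CPM, which was also divided by the element's length in kb for the most abundant ones. Aligned fragments ranged from 18226033 to 22463310 per library, so that 0 counts leave room for a level of up to 3 counts (0.134 to 0.165 CPM) from counting error alone.

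Many of the abundant loci held the annotated end of a cellular transcript, noncoding RNAs among them, so the sequences of such ends are given first. Of the 245 tested loci, 127 (51.8%) overlapped an exon on the same strand in GENCODE 44 and 76 (31.0%) held an annotated transcript end, 63 of them LTRs and 13 internal parts. An end was held by 4.55% of the own-strand loci with too few counts to test and by 19.6% of the 1860 other tested LTR-class loci. Loci with a transcript end held 62.0% of all counts of the tested loci. Annotated starts were rarer, in 14 (5.71%) of the tested loci, against 5.16% of the other tested LTR-class loci.

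The following are the last 60 bases before an annotated transcript end, 5′ to 3′ on the transcribed strand, from hg38 with ends from GENCODE 44, shown for some of the noncoding transcripts that end in the 30 most abundant loci. Where several transcripts ended in one locus, the most frequent end was taken and, among equals, the most distal. Each end printed here and below was that of 1 transcript. The transcripts ending in the locus numbered 4 for LTR21A, 3 for LTR8, 2 for LTR45C, 6 for LTR1B and 1 for LTR46-int. Capitals mark the polyadenylation signal AATAAA.
LTR21A in DANCR (chr4:52714082-52714141, plus strand): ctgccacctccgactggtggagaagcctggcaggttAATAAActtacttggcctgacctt
LTR8 in LINC00857 (chr10:80219598-80219657, plus strand): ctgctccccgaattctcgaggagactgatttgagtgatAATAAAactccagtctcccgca
LTR45C in TRPM2-AS (chr21:44414588-44414647, minus strand): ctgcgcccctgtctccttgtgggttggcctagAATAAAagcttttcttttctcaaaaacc

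In these 3 LTRs the signal stood 16 to 22 bases before the annotated end. The windows of an LTR1B in SLC12A2-DT and of an LTR46-int in LINC01278, both among the 10 most abundant loci, held neither AATAAA nor ATTAAA. The same was true of a Harlequin-int at an end of ENSG00000267002, also among these 10, which is not printed. The LTR1B and LTR46-int windows are given next.
LTR1B in SLC12A2-DT (chr5:127966549-127966608, minus strand): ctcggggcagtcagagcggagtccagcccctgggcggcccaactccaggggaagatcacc
LTR46-int in LINC01278 (chrX:63426892-63426951, minus strand): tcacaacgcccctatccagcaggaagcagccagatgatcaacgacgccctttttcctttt

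Over the 147 annotated ends inside tested loci, the 50 bases before the end held AATAAA in 67 (45.6%) and, where it was missing, ATTAAA in 24 (16.3%), read on the transcribed strand. The shares were 45.9% and 11.4% over the 665 ends inside the other tested LTR-class loci. Over all 214414 distinct GENCODE transcript ends they were 23.6% and 6.69%. At starts, TATAAA was found in the 50 bases before 0 of 21 annotated starts inside tested loci and before 1.80% of all annotated starts. A match to such letters is a description and does not show that the site is used in these cells.

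ZC3H18 RNA checked the labels, since the gene tables do not separate the introduced from the endogenous transcript. It stood at 58.4, 51.3 and 61.8 TPM in the Clover libraries and at 752, 739 and 798 TPM in the Z18trunc libraries (limma adjusted p = 3.2e-05). All 3 Z18trunc libraries were far above the controls. It was 1 of the 2 genes called among 13300 tested (0.015%). Of the colon epithelial markers, EPCAM, CDH1, KRT8, KRT18, CDX2 and VIL1 were detected in every library and KRT20 was listed at 0. MLANA, TYR, PTPRC, PECAM1 and COL3A1 were listed at 0 throughout, while PMEL reached 3.60 TPM and COL1A1 1.55 TPM. In bulk RNA, fewer cells that transcribe a locus and less RNA per cell cannot be told apart.

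RNA counted at these ERV1 loci as a whole was more abundant in Z18trunc, per aligned fragment. Their summed own-strand abundance was 495, 510.0 and 482 CPM in the Clover libraries and 549, 589 and 583 CPM in the Z18trunc libraries. Every Z18trunc library lay above every Clover library. The means were 495 ± 14.2 and 574 ± 21.7 CPM (SD, n = 3 each). Their log2 ratio was 0.21, with an exact two-sided permutation p of 0.1, the smallest that 3 against 3 libraries allow. The result depended on what the counts were divided by. Relative to opposite-strand counts of all repeats outside exons, the log2 ratio of the sum was -0.073, with overlap (exact permutation p = 0.5). Those opposite-strand counts were themselves 10217 to 12215 CPM in Clover and 12356 to 14716 CPM in Z18trunc. Whether they track another property of the libraries was not tested.

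The LTRs and the internal parts were both higher per aligned fragment. LTR fragments summed to 374 ± 19.8 CPM (SD, n = 3) with Clover and 427 ± 12.4 CPM (SD, n = 3) with Z18trunc, and internal fragments to 121 ± 9.04 and 146 ± 9.41 CPM (SD, n = 3 each). Neither pair of groups overlapped (exact permutation p = 0.1 each). The log2 ratio of internal to LTR fragments overlapped between groups (difference 0.08, exact permutation p = 0.7). By position, loci in genes on the same strand held the most RNA, with 323 ± 6.84 and 371 ± 15.7 CPM (SD, n = 3 each), and loci outside genes held 148 ± 8.89 and 175 ± 9.99 CPM (SD, n = 3 each). Both were without overlap (exact permutation p = 0.1 each). Relative to opposite-strand counts both log2 ratios were negative, at -0.083 and -0.045, with overlap between groups (exact permutation p = 0.5 each). Loci in a gene on the other strand only stood at 24.0 ± 2.12 and 27.2 ± 2.72 CPM (SD, n = 3 each), and there the groups overlapped (exact permutation p = 0.2). Outside genes here means outside the deposited gene spans, so some of those loci still overlap annotated exons. The 1918 loci outside genes that overlap no exon on either strand held 103 ± 7.56 and 120 ± 7.57 CPM (SD, n = 3 each). There the groups did not overlap (exact permutation p = 0.1).

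**Figure D1:**
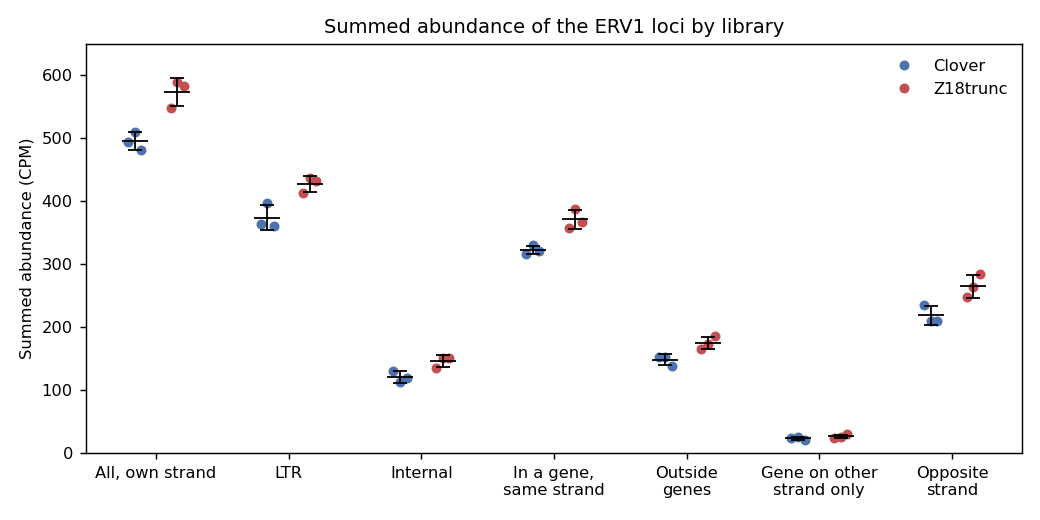
Summed abundance in CPM on the vertical axis for all own-strand ERV1 loci, for subsets and for the opposite strand. Each point is 1 library and bars give the mean and SD of 3. Per aligned fragment, the Z18trunc points lie above the Clover points in every column except loci with a gene on the other strand only. Relative to opposite-strand counts, the sum over all own-strand loci had a log2 ratio of -0.073, with overlap (exact permutation p = 0.5).

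The larger part of the sum came from the 491 own-strand loci that overlap an exon on the same strand, where fragments of the host transcript count too. These had 323 ± 8.21 CPM with Clover and 371 ± 13.3 CPM with Z18trunc (SD, n = 3 each), without overlap (exact permutation p = 0.1). Loci away from annotated exons showed the same direction. The 3233 own-strand loci that overlap no exon on either strand held 169 ± 11 CPM (SD, n = 3) with Clover and 199 ± 14.2 CPM (SD, n = 3) with Z18trunc, without overlap (exact permutation p = 0.1). The opposite strand moved in parallel, from 219 ± 14.6 to 266 ± 18.3 CPM (SD, n = 3 each), again without overlap (exact permutation p = 0.1). The log2 ratio of own to opposite strand was 1.18 ± 0.104 for the Clover and 1.11 ± 0.0689 for the Z18trunc libraries (SD, n = 3 each), which overlapped (exact permutation p = 0.4). Between 67.2% and 70.8% of the counts of these loci lay on the own strand, and 66.8% to 70.9% of own-strand counts were mapped uniquely.

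The change of these loci could not be told apart from that of other LTR-class elements. The loci held 11.7% to 12.4% of own-strand LTR-class RNA, and their log2 ratio to all other LTR-class loci differed by -0.0019 between groups (exact permutation p = 1). Against the ERV1 loci with MER names the difference was 0.059 and the groups overlapped (exact permutation p = 0.2). Against the LTR12 and HERV9 loci, which went from 182 ± 6.86 to 268 ± 18.1 CPM (SD, n = 3 each), the log2 ratio was 1.45 ± 0.0767 for Clover and 1.10 ± 0.0486 for Z18trunc (SD, n = 3 each). The difference of -0.35 was without overlap (exact permutation p = 0.1), so the loci described here were higher by less than the LTR12 and HERV9 loci.

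A handful of loci held much of the RNA. The most abundant locus alone held 13.9% of own-strand CPM, the 2 most abundant 24.6% and the 10 most abundant 36.5%. The top 29 loci held 50% of the total and the top 747 held 90%. Without the 2 most abundant loci the sum was still higher in Z18trunc, at 376 ± 12.4 against 430.5 ± 23.0 CPM (SD, n = 3 each), with no overlap and a log2 ratio of 0.19 (exact permutation p = 0.1).

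The most abundant locus, an LTR21A, holds the 3′ end of DANCR, a noncoding RNA that hosts small RNAs and was named for holding back differentiation. The locus (hg38, chr4:52713763-52714175, plus strand, 413 bp, 21.2% diverged from its consensus) had 64.5, 74.1 and 66.7 CPM in Clover and 81.9, 81.4 and 77.4 CPM in Z18trunc. The Z18trunc values were all higher, by 0.23 on the log2 scale (SE 0.10), but edgeR did not call the locus over all 12453 tested loci (adjusted p = 0.41). Relative to opposite-strand counts its log2 change was -0.054. Per length it was also the most abundant of the named loci, at 180.0 CPM per kb. DANCR as a gene stood at 339, 349 and 335 TPM in Clover and at 439, 430.2 and 417 TPM in Z18trunc (log2 change 0.33, limma adjusted p = 0.077).

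The next locus, an LTR48B (chr6:27138224-27138815, minus strand), overlaps the deposited span of H2BC12, a histone H2B gene, and both the start and the end of the GENCODE noncoding RNA ENSG00000290032. Its abundance was 44.7, 55.1 and 52.6 CPM in Clover and 61.9, 70.9 and 56.3 CPM in Z18trunc, or 96.2 CPM per kb over all libraries. The groups did not overlap, although the lowest Z18trunc library lay just above the highest Clover library. The log2 change was 0.31 (SE 0.11, edgeR adjusted p = 0.27). H2BC12 went from 359 ± 27.4 to 487 ± 58.2 TPM (SD, n = 3 each; log2 change 0.44, limma adjusted p = 0.084). Reads of the histone gene and of the noncoding RNA on the same strand cannot be told apart at this locus.

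The other 8 of the 10 most abundant loci stood between 3.92 and 11.6 CPM in the libraries and did not share a direction. An LTR37-int in an exon of NET1, which encodes a RhoA exchange factor, had 8.68, 10.6 and 8.66 CPM in Clover and 8.68, 9.82 and 11.3 CPM in Z18trunc. Its groups overlapped, whereas NET1 itself had 50.4 ± 2.42 and 67.0 ± 2.53 TPM (SD, n = 3 each; log2 change 0.41, limma adjusted p = 0.077). An LTR19A at the end of PRXL2B, which encodes a prostaglandin F synthase, was level at 9.42 ± 0.946 and 9.34 ± 0.586 CPM (SD, n = 3 each), as was its gene at 55.4 ± 6.01 and 54.2 ± 2.96 TPM (SD, n = 3 each). An LTR1D on the opposite strand of the dynein gene DNAH3 had 7.33 ± 0.299 and 7.21 ± 1.04 CPM (SD, n = 3 each), with overlap.

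HUERS-P3-int (chr11:17370374-17376380, plus strand, 6007 bp) holds an annotated end of NCR3LG1, the gene of a ligand of the natural killer cell receptor NKp30. It had 9.84, 4.81 and 9.12 CPM in Clover and 11.3, 10.9 and 11.6 CPM in Z18trunc (log2 change 0.50, SE 0.17, edgeR adjusted p = 0.27). Clover replicate 2 was low here and also in the gene, where the Clover libraries had 5.68, 2.61 and 4.6 TPM and the Z18trunc libraries 6.17, 5.77 and 5.77 TPM. The groups did not overlap with or without that library, but without it the log2 change was 0.25 at the locus (edgeR adjusted p = 0.62) and 0.10 for the HUERS-P3-int subfamily.

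The noncoding RNA LINC01278 on the X chromosome runs through a chain of LTR46 fragments. The long internal part that holds an annotated start (chrX:63428376-63433922, minus strand) had 7.21, 4.98 and 7.22 CPM in Clover and 8.49, 8.59 and 8.78 CPM in Z18trunc (log2 change 0.41, SE 0.15, edgeR adjusted p = 0.35), without overlap. Without Clover replicate 2, the lowest library, the log2 change was 0.26 (edgeR adjusted p = 0.64). The internal part at its end (chrX:63426869-63428052) had 9.19 ± 1.04 and 8.87 ± 0.759 CPM (SD, n = 3 each; log2 change -0.052, SE 0.14, edgeR adjusted p = 0.94). LINC01278 as a gene had 17.9 ± 1.93 and 18.6 ± 0.521 TPM (SD, n = 3 each), with overlap. Parts of one transcript thus had different values, and the difference between them was not tested.

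A Harlequin-int (chr17:43160721-43165886, minus strand), 5.9% diverged from its consensus, lies in LOC101929767 and holds an end of ENSG00000267002. It had 5.70, 3.92 and 4.64 CPM in Clover and 5.61, 8.07 and 7.19 CPM in Z18trunc, so the groups overlapped at replicate 1 (log2 change 0.54, SE 0.17, edgeR adjusted p = 0.24). In the opposite direction, the LTR1B at the end of SLC12A2-DT (chr5:127966105-127966903, minus strand) had 5.39, 6.22 and 6.93 CPM in Clover and 4.59, 4.94 and 5.14 CPM in Z18trunc. All Z18trunc values were lower there (log2 change -0.34, SE 0.16, edgeR adjusted p = 0.49). LINC01184, the gene of the deposited table at that place, had 20.8 ± 0.179 and 18 ± 1.15 TPM (SD, n = 3 each; log2 change -0.20, limma adjusted p = 0.14).

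**Figure D2:**
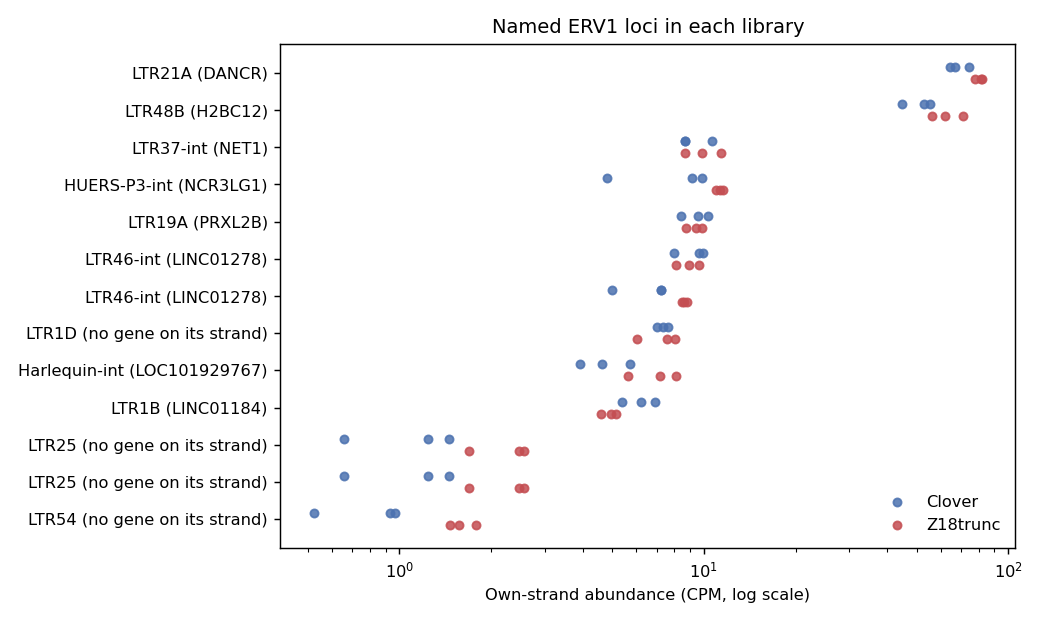
Own-strand abundance of the named loci on a log axis in CPM, 1 point per library, ordered by mean abundance, with the gene of the deposited tables on the same strand in parentheses. LTR21A and LTR48B stand between 44.7 and 81.9 CPM, above all others, and the groups overlap at LTR37-int, LTR19A, one LTR46-int, LTR1D and Harlequin-int.

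No single locus among the 245 passed the adjustment. edgeR called 0 of them, against 0.201% of all 12453 tested loci. DESeq2 with size factors from aligned fragments also called 0, with 19 loci at an unadjusted p under 0.05 (7.76%, against 4.3% of all tested loci). In edgeR at an unadjusted p under 0.05, 26 loci were higher in Z18trunc (10.6%, against 8.17% of all tested loci) and 4 were lower (1.63%, against 1.77%). The edgeR shares lay near the background, while the DESeq2 share was above that of all tested loci, a difference that was not tested. The median log2 change was 0.16 over the 245 loci and 0.17 over all tested loci. With TMM scaling 14 were higher (5.71%, against 3.89% of all tested loci) and 10 lower (4.08%, against 4.57%). Relative to opposite-strand counts 7 were higher (2.86%, against 2.38%) and 13 lower (5.31%, against 6.49%). By the deposited FPKM values, 103 of the 3805 loci had all Z18trunc values above all Clover values (2.71%, against 2.21% of 38850 LTR-class loci) and 43 had all below (1.13%, against 1.1%).

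Across the tested loci, change went with neither abundance nor age. The log2 change had a Spearman rho of -0.01 with mean CPM and of 0.01 with divergence from the consensus, over 245 loci that share the same 6 libraries. Divergence ranged from 4.1% to 36.6% with a median of 14.6%. Internal parts had a median log2 change of 0.26 (55 of 73 above 0) and LTRs of 0.12 (113 of 172 above 0). Loci with a transcript end inside had a median of 0.09 and those without one of 0.18.

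**Figure D3:**
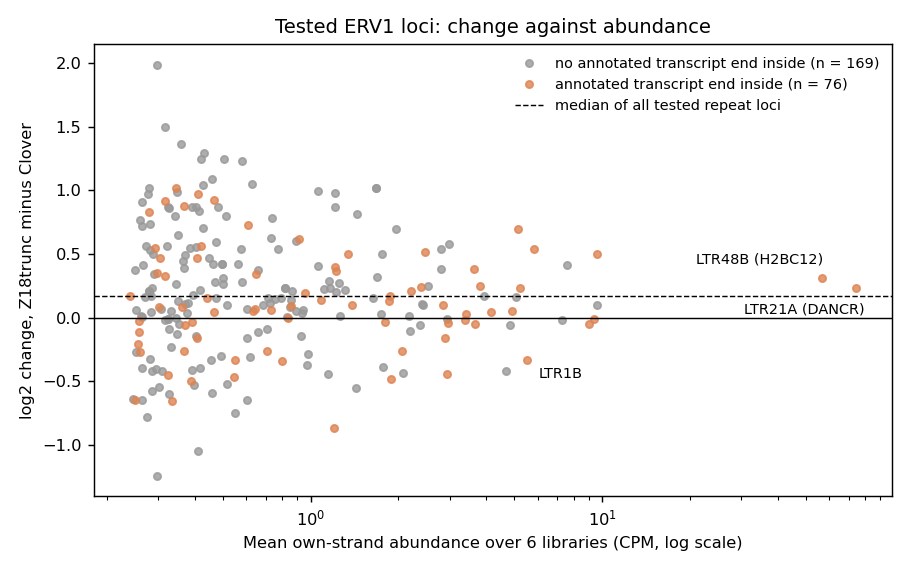
The log2 change of each of the 245 tested loci against its mean abundance in CPM on a log axis, with loci that hold an annotated transcript end in orange. The dashed line is the median of all tested repeat loci, 0.17. The spread narrows as abundance rises, and loci with transcript ends include both the most abundant locus and loci on either side of 0.

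Among the smallest p-values were 2 copies of LTR25 on chromosome 21 (chr21:6659721-6660333 and chr21:6986791-6987403, both minus strand). Both were given the same values, 0.658, 1.45 and 1.24 CPM in Clover and 1.70, 2.57 and 2.46 CPM in Z18trunc (log2 change 1.02, SE 0.28, edgeR adjusted p = 0.14). Their 613 bases are identical to each other, with 0 mismatches, and to a copy on the plus strand (chr21:6328793-6329405), and 0% of their counts were uniquely mapped. That copy had 5.94, 7.03 and 3.09 CPM in Clover and 4.94, 2.60 and 4.37 CPM in Z18trunc. The 3 identical copies together had 7.25, 9.94 and 5.56 CPM in Clover and 8.33, 7.75 and 9.30 CPM in Z18trunc, and the groups overlapped. Fragments of these copies cannot be told apart by sequence, so how much each one gave is an estimate of the authors' expectation-maximization step.

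Another locus with a small p-value was a short LTR54 (chr19:8387118-8387378, plus strand) on the opposite strand of RAB11B-AS1. It had 0.928, 0.523 and 0.968 CPM in Clover and 1.47, 1.79 and 1.57 CPM in Z18trunc (log2 change 0.98, SE 0.31, edgeR adjusted p = 0.23). The counts behind it were small, 10 to 33 fragments per library.

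Summed by subfamily, 3 of 113 tested subfamilies passed, all of them higher in Z18trunc: LTR4, HUERS-P1-int and LTR61. That is 2.65%, against 1.89% of all 898 tested subfamilies. At an unadjusted p under 0.05, 18 were higher (15.9%, against 24.6% of all subfamilies) and 0 were lower (0% of all subfamilies). The median log2 change was 0.21 over the 113 and 0.21 over all subfamilies. TMM scaling, DESeq2 and scaling to opposite-strand counts each left 0 of them called. Leaving out Clover replicate 1, 2 or 3 also left 0, while 5 were called without Z18trunc replicate 1 and 1 without Z18trunc replicate 2.

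LTR4 had the largest change of the named subfamilies. Its 16 loci summed to 1.96, 1.05 and 1.43 CPM in Clover and to 3.21, 3.57 and 2.29 CPM in Z18trunc (log2 change 1.01, SE 0.24, edgeR adjusted p = 0.046). LTR61 (22 loci) had 5.73, 5.09 and 6.01 CPM in Clover and 7.32, 8.48 and 9.05 CPM in Z18trunc (log2 change 0.56, SE 0.15, edgeR adjusted p = 0.049). A single locus held 74.0% of the mean abundance of LTR61, so its change is largely that of this locus. In neither subfamily did the groups overlap. Both are LTRs of HERV3: in this annotation LTR61 borders HERV3-int at 8 places and LTR4 at 5. LTR2C, which also borders HERV3-int at 5 places, was level (log2 change -0.029, SE 0.15, edgeR adjusted p = 0.91). HERV3-int itself did not pass, at 6.12 ± 0.944 and 7.43 ± 1.20 CPM (SD, n = 3 each; log2 change 0.28, SE 0.16, edgeR adjusted p = 0.28).

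The known coding copy of this group is ERV3-1 on chromosome 7, whose provirus keeps an open envelope gene and reads on into ZNF117. The LTR4 at its 5′ side (chr7:64999344-64999936, minus strand) had 0.267, 0.209 and 0.560 CPM in Clover and 0.802, 0.933 and 0.714 CPM in Z18trunc (log2 change 1.23, SE 0.45, edgeR adjusted p = 0.33), without overlap on 4 to 18 counts per library. The internal part (chr7:64990916-64999343) had 1.51, 1.15 and 1.68 CPM in Clover and 2.09, 2.08 and 2.0 CPM in Z18trunc (log2 change 0.50, SE 0.25, edgeR adjusted p = 0.51). The LTR4 at the 3′ side overlapped between groups. ERV3-1 as a gene was level, at 8.32 ± 1.91 and 8.46 ± 0.325 TPM (SD, n = 3 each). The LTR and the spliced gene thus had different values, and the difference between them was not tested.

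HUERS-P1-int (37 loci) had 2.49, 2.77 and 2.98 CPM in Clover and 3.92, 4.99 and 4.52 CPM in Z18trunc (log2 change 0.70, SE 0.18, edgeR adjusted p = 0.046). Every Z18trunc value was above every Clover value. With uniquely mapped counts it was not called (log2 change 0.62, edgeR adjusted p = 0.057). LTR8, the LTR that borders it at 20 places in this annotation, had 27.6 ± 1.84 and 28.2 ± 1.32 CPM (SD, n = 3 each; log2 change 0.03, SE 0.10, edgeR adjusted p = 0.87). The internal part and its usual LTR thus gave different values, and the difference between them was not tested. LTR8 is spread over 240 own-strand loci, of which the LTR in LINC00857 printed above is an example.

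HUERS-P1-int and LTR4 were also looked at by locus, a comparison chosen after the values were seen and given without a test. A row of 4 HUERS-P1-int fragments on chromosome 3 (chr3:184701615-184707114, minus strand, outside genes, 7.0% diverged) held 56.6% to 70.5% of the subfamily in a library. Together they had 1.62 ± 0.0976 CPM (SD, n = 3) with Clover and 3.03 ± 0.377 CPM (SD, n = 3) with Z18trunc, without overlap. The other 33 loci had 1.13 ± 0.170 and 1.45 ± 0.264 CPM (SD, n = 3 each), with overlap. In LTR4 the pair of LTRs around ERV3 went from 0.678 ± 0.225 to 1.32 ± 0.222 CPM (SD, n = 3 each) and the other 14 loci from 0.799 ± 0.311 to 1.70 ± 0.767 CPM (SD, n = 3 each), where Z18trunc replicate 3 lay within the Clover range.

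**Figure D4:**
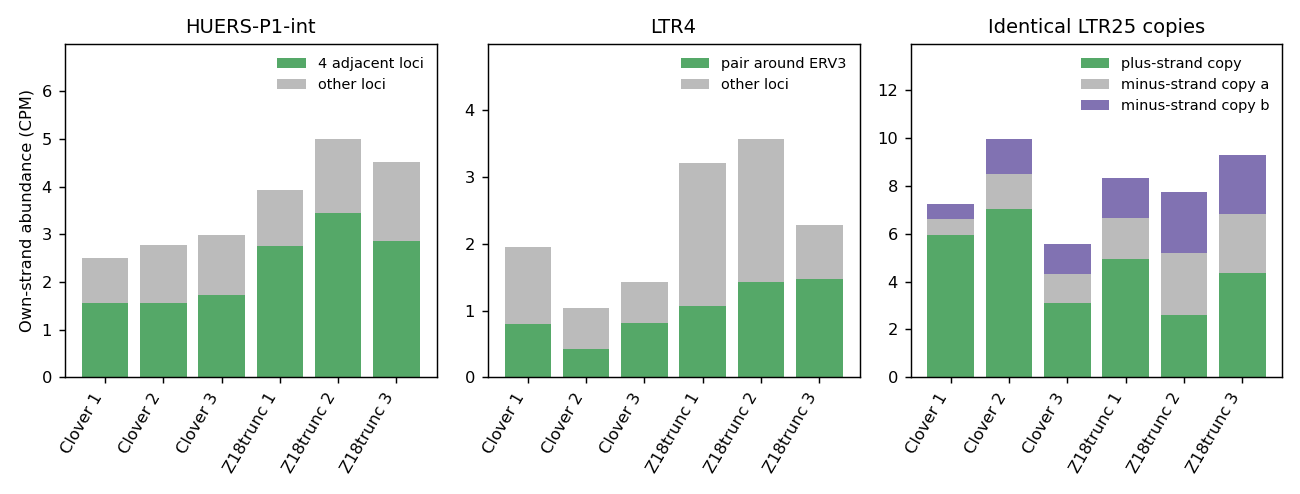
Stacked bars of own-strand abundance in CPM in each of the 6 libraries, for HUERS-P1-int (the 4 adjacent loci on chromosome 3 and the rest), LTR4 (the pair around ERV3 and the rest) and the 3 identical LTR25 copies. In the first 2 panels the green part does not overlap between groups, while in the third the division among copies shifts and the totals, 5.56 to 9.94 CPM, overlap.

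The abundant subfamilies did not pass. LTR21A (edgeR adjusted p = 0.13) and LTR48B (0.08) had log2 changes of 0.23 and 0.31, and single loci held 97.7% to 99.3% and 85.4% to 89.0% of them. Harlequin-int had a log2 change of 0.41, HUERS-P3-int of 0.26, LTR8A of 0.21 and LTR46-int of 0.16, while LTR37-int, LTR19A and LTR25 lay at or under 0.10. All of these except Harlequin-int and LTR48B were negative relative to opposite-strand counts. Among the smallest p-values, HERVS71-int had 4.72 ± 0.270 and 6.67 ± 0.272 CPM (SD, n = 3 each; log2 change 0.50, SE 0.15, edgeR adjusted p = 0.069). LTR24B had 1.20 ± 0.199 and 2.12 ± 0.560 CPM (SD, n = 3 each; log2 change 0.84, SE 0.26, edgeR adjusted p = 0.080).

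**Figure D5:**
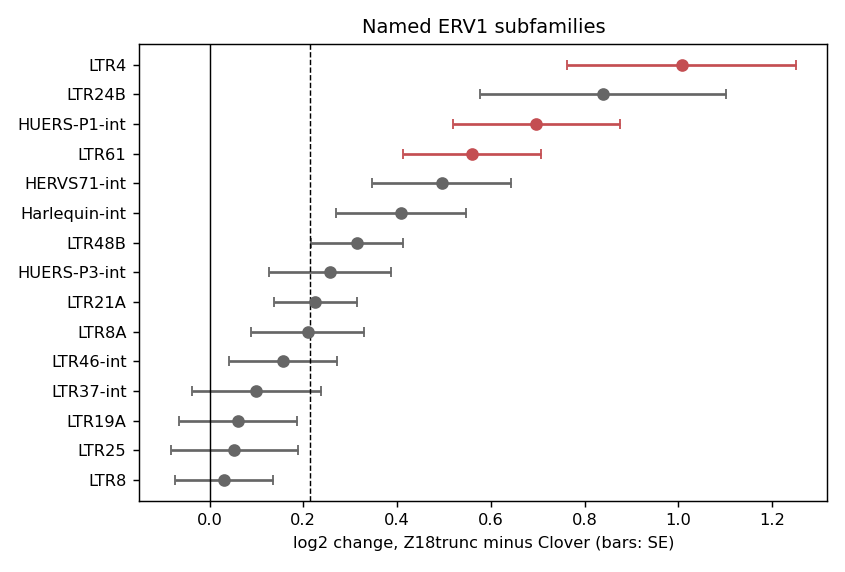
The log2 change of each named subfamily with its SE, from edgeR on counts per aligned fragments. The 3 called subfamilies are in red, and the dashed line marks the median of all subfamilies, 0.21. LTR8, LTR25, LTR19A and LTR37-int lie to the left of that line near 0 and were negative with TMM scaling.

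On the opposite strand 7 of 115 tested subfamilies passed, all of them higher in Z18trunc (6.09%, against 12.6% of all subfamilies). They included HUERS-P1-int and LTR61, which also passed on their own strand, and HERV3-int. Antisense HERV3-int had 4.48, 2.40 and 4.48 CPM in Clover and 5.34, 6.15 and 6.95 CPM in Z18trunc (log2 change 0.68, SE 0.18, edgeR adjusted p = 0.0049). Antisense LTR8 had 12 ± 1.71 and 15.9 ± 0.196 CPM (SD, n = 3 each; log2 change 0.40, SE 0.13, edgeR adjusted p = 0.027), unlike its own strand above, and the difference between strands was not tested. LOR1-int, LTR15 and LTR37A were the others.

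Genes that act on such RNA or silence such loci were examined beside them. All 10 nuclear RNA surveillance genes of the list had log2 changes above 0 and 0 passed in limma, with 7 at an unadjusted p under 0.05 (28.5% of all 13300 tested genes were) and a median of 0.34 against 0.11 over all genes. After quantile normalization, which removes that shift of all genes, their median was 0.20. RBM7, the RNA-binding subunit of NEXT, had 10.1 ± 0.544 and 13.2 ± 0.465 TPM (SD, n = 3 each; limma adjusted p = 0.077), and ZFC3H1, the PAXT scaffold, 3.83 ± 0.875 and 6.02 ± 1.0 TPM (SD, n = 3 each; limma adjusted p = 0.092). Of 9 genes of retroviral silencing, 0 passed in limma, 1 had an unadjusted p under 0.05 and 7 were above 0, with a median of 0.20 that was 0.078 after quantile normalization. TRIM28, the corepressor recruited by KRAB zinc finger proteins, had 618 ± 28.3 and 581 ± 36.3 TPM (SD, n = 3 each), and ATF7IP, which stabilises SETDB1, 10.2 ± 1.69 and 13.9 ± 1.15 TPM (SD, n = 3 each; limma adjusted p = 0.099). Of the genes derived from ERV1 proviruses, ERVW-1, ERVFRD-1, ERVV-1 and ERVV-2 were listed at 0 in all libraries. ERVMER34-1 had 48.8 ± 6.73 and 58.9 ± 2.51 TPM (SD, n = 3 each; limma adjusted p = 0.17), without overlap.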

How the data were processed

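Per the study's methods and the labels, the authors sequenced stranded, polyA-selected libraries, trimmed them with cutadapt 4.6, mapped them to hg38 and ran SQuIRE. The deposited repeat tables give whole-number uniquely mapped counts per locus and strand, not normalized; estimated counts, in which the authors shared multiply mapped fragments among loci by expectation-maximization; and FPKM, which the authors computed over the covered stretch of each locus. The authors' gene tables give TPM, here summed by symbol.

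Here, estimated counts were rounded and tested with edgeR 4.0.16 (quasi-likelihood; at least 30 counts over 6 libraries; library size from aligned fragments; adjusted by Benjamini-Hochberg across every tested locus or subfamily of the LTR, LINE, SINE and DNA classes). Genes averaging 1 TPM or more were tested as log2(TPM + 1) with limma 3.58.1, a scale that understates changes of low genes. Sums were compared by exact two-sided permutation tests. Alternatives were TMM, opposite-strand scaling, DESeq2 1.42.0, other filters, uniquely mapped counts, a replicate block and leaving out each library. The steps were tested on simulated data. Gene context came from the deposited spans under 2500000 bp and GENCODE 44 (bedtools 2.31.1). Named loci and subfamilies were those called, the 10 most abundant and the 5 of smallest p; their host genes and fixed lists were added. The members and lists were chosen with earlier results of these data known. Some named items are not reported here.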

Additional observations from a re-analysis of the deposited data

How the results depend on the processing

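Relative to opposite-strand counts, the log2 ratio was -0.073 for the sum over all own-strand loci, -0.045 outside genes, -0.083 in genes on the same strand, -0.092 for LTRs and -0.010 for internal parts. In each of these the groups overlapped. The exact permutation p was 0.5 for the whole sum, outside genes and in genes, and 0.4 for LTRs. Under the same scaling LTR21A turned to -0.054 (locus) and -0.058 (subfamily), LTR37-int to -0.20 and -0.19, HUERS-P3-int to -0.018, LTR19A to -0.22, LTR25 to -0.23, LTR46-int to -0.12, LTR8 to -0.25 and LTR8A to -0.077. TMM scaling gave LTR37-int -0.080 (locus) and -0.11 (subfamily), LTR19A -0.14, LTR25 -0.15, LTR46-int -0.043 and LTR8 -0.17, and DESeq2 with its own size factors gave -0.078, -0.11, -0.15, -0.16, -0.048 and -0.17 in the same order. With uniquely mapped counts the LTR19A and LTR1D loci turned to 0.062 and 0.13 and the ratio of these loci to other LTR-class loci to 0.024; without the 20 most abundant loci that ratio was 0.0024, and with loci that overlap no annotated exon -0.12 (exact permutation p = 0.2). Same-strand loci without exon overlap had a log2 ratio of 0.28, with overlap between groups.

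The number of subfamilies called, 3, became 0 with TMM, with scaling to opposite-strand counts, with both DESeq2 fits and with a minimum of 100 counts, and 5 with uniquely mapped counts, which called LTR21A (edgeR adjusted p = 0.034) and LTR48B (0.019) but not HUERS-P1-int (0.057). With a minimum of 100 counts 1 locus was called. Genes called fell from 2 to 1 with a pseudocount of 0.1, without a filter on TPM and after quantile normalization. Same-numbered libraries did not deviate together (correlations -0.039, -0.17 and -0.17 over 898 subfamilies), and the main fits did not pair them. The labels give only replicate numbers, so whether same-numbered libraries were made together is not known. With a replicate block 1 subfamily and 1 gene were called and 0 loci.

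Leaving out 1 library at a time gave 0 to 5 called subfamilies (0 without Clover replicate 1, 2 or 3) and 1 to 4 called genes. The ratio to other LTR-class loci ranged from -0.016 to 0.026. Log2 changes near 0 changed sign: among loci LTR19A ranged from -0.088 to 0.057, LTR1D from -0.10 to 0.089, LTR37-int from -0.011 to 0.20 and the LTR46-int at the end of LINC01278 from -0.14 to 0.010, and among subfamilies LTR19A from -0.012 to 0.12, LTR25 from -0.070 to 0.21, LTR37-int from -0.010 to 0.20 and LTR8 from -0.023 to 0.067. The causes of these differences were not tested. All other alternatives kept the direction of the sums and, for the sums, the absence of overlap. Depth limits the rest: 3560 own-strand loci had too few counts for a test, and a tested locus with 4 to 18 counts per library, the LTR4 beside ERV3, had an SE of 0.45 on the log2 scale.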

Other observations

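Outside the named items, these loci had an unadjusted p under 0.05 and were not called by edgeR. A HERVI-int in an intron of ST20 (chr15:79916599-79918144, minus strand) had 0.116 ± 0.0360 and 0.476 ± 0.200 CPM (SD, n = 3 each; log2 change 1.99, SE 0.66, edgeR adjusted p = 0.27). Its Clover mean lay below the level of 3 counts in the Clover libraries, 0.134 to 0.157 CPM, so this change rests on very few fragments. The locus was chosen for having the highest log2 change among loci at an unadjusted p under 0.05. The lowest log2 change among such loci was that of an LTR25 (chr20:26010895-26011290, plus strand), with 1.55 ± 0.601 and 0.844 ± 0.129 CPM (SD, n = 3 each; log2 change -0.86, SE 0.33, edgeR adjusted p = 0.37), where the groups overlapped. Also lower, an LTR46 fragment of 100 bp inside LINC01278 (chrX:63426769-63426868, minus strand), next to the internal part that ends this RNA, had 1.69 ± 0.202 and 1.16 ± 0.0603 CPM (SD, n = 3 each; log2 change -0.55, SE 0.27, edgeR adjusted p = 0.50). The LTR45C that ends TRPM2-AS had 3.37 ± 0.339 and 2.49 ± 0.150 CPM (SD, n = 3 each; log2 change -0.44, SE 0.20, edgeR adjusted p = 0.45), all Z18trunc values lying below all Clover values.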
